A study of Mus musculus with 92 samples.

Results

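The 10 genes described here encode the main heat shock chaperones: the cytosolic Hsp70 proteins (Hspa1a, Hspa1b and Hspa8), the Hsp110 exchange factor Hsph1, the Hsp40 partner Dnajb1, the small heat shock protein Hspb1, the cytosolic Hsp90 pair (Hsp90aa1 and Hsp90ab1) and the mitochondrial chaperonin pair (Hspd1 and Hspe1). They were chosen by name, with earlier results of these data known, and make up 10 of 56953 gene IDs in the RNA-seq tables. All 10 had enough counts for a test in RNA-seq, and 9 had enough converted reads in SLAM-seq, where Hspa1a did not. Cells were C57BL/6 mouse embryonic stem cells homozygous for a degron tag, named in the labels as GabpadTAG/dTAG, Gabpb1dTAG/dTAG or Gabpb1/b2dTAG/dTAG and called here the GABPA, GABPB1 and GABPB1/GABPB2 lines. The small molecule dTAG-13 recruits a ubiquitin ligase to the tagged protein. In every line, control cells carried the same tag and received DMSO in place of 500 nM dTAG-13, and all cells grew with serum, LIF, PD0325901 and CHIR99021. RNA-seq of polyadenylated RNA covered the 3 lines after 12 h, and SLAM-seq, in which 4-thiouridine taken up into new RNA is read as T-to-C conversions, was made for the GABPA line after 1, 2, 4 and 12 h. The 26 libraries formed 13 groups of 2. Unless another fit is named, p-values here rest on the spread between duplicates over all groups of an assay, partly shared across genes. They do not measure the spread of the compared groups alone. No untagged cells enter these comparisons, and in bulk RNA fewer cells and less RNA per cell cannot be told apart.

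Heat shock proteins bind unfolded polypeptides and are made in quantity when proteins denature, through the transcription factor HSF1, which binds repeated GAA units in promoters. Hsp70 works in cycles of ATP use: an Hsp40 protein such as Dnajb1 delivers a client and triggers hydrolysis, and an exchange factor such as Hsph1 resets the cycle. Hspa8 is the constitutive Hsp70, while Hspa1a and Hspa1b are the stress-inducible ones. Hsp90 receives clients from Hsp70, Hspb1 holds unfolded proteins without using ATP, and Hspd1 and Hspe1 form the barrel and lid in which imported mitochondrial proteins fold. GABP is an ETS-family factor: the GABPA subunit binds the core CCGGAAG, and GABPB1 or GABPB2 supplies the partner subunit.

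Promoters are shown for the shared Hspd1 and Hspe1 stretch, where both kinds of motif occur, and for the near-identical pair Hspa1a and Hspa1b. Whether these letters bear on any change was not tested. RefSeq windows from 250 bases before to 50 bases after each start (GRCm38.p6) were matched for 7 of the 10 genes (not Hspa8, Hsp90aa1 and Hsp90ab1). In the lines below, capitals mark matches to the ETS core CCGGAAG or to paired heat shock units, GAANNTTC or TTCNNGAA, searched on both strands.
Hspe1, 200 bases before its start, plus strand of chr1:55087948-55088147: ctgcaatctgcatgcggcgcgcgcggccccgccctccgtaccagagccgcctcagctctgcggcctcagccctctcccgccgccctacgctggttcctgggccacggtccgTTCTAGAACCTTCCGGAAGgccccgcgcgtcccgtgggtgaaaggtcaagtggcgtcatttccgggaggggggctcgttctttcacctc
Hspa1a, 150 bases before its start, minus strand of chr17:34972157-34972306: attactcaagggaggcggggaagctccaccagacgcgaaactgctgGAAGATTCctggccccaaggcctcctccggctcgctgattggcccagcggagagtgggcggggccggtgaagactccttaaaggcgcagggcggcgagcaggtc
Hspa1b, 150 bases before its start, minus strand of chr17:34959239-34959388: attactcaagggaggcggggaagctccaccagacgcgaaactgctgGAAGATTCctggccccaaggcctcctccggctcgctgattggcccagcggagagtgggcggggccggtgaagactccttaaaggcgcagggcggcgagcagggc
The Hspe1 window held the ETS core once on each strand, at -80 and -77 from the start, and 3 overlapping paired units at -89, -84 and -79, so that the motifs share letters. Hspd1 is read the other way from the same stretch, and one of its listed starts lies 216 bases from that of Hspe1. The window of the other listed Hspd1 start held none of these motifs. The 7 genes have 10 windows, since some have more than 1 listed start. The ETS core was in 2 of the 10 (Hspd1 and Hspe1, which overlap), against 8.86% of all 32851 promoter windows of this length. Paired units were in 7 windows, from 6 genes (all but Dnajb1), against 15.1% of windows. A run of 3 units, a pair followed by NN and a further unit, was in 4 windows, from 3 genes (Hspd1, Hspe1 and Hsph1), against 0.603%. The matching Hspd1 and Hspe1 windows hold the same paired units and runs, as do both Hsph1 windows, so these windows are not independent. Hspa1a and Hspa1b each had 1 paired unit, GAAGATTC at -104, and their printed stretches differ at 1 base. A match describes the letters only and is no measure of binding.

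RNA-seq libraries held 16.0 to 32.1 M counts, and SLAM-seq libraries 11.5 to 30.7 M reads, of which 0.937 to 4.25 M (5.06% to 14.1%) carried conversions. Markers fit the label: 8 of 8 embryonic stem cell genes summed to 10168.8 to 11777.3 TPM (a level scaled by transcript length), with none at 0. Dppa5a made up most of this sum, at 7337.0 to 8756.0 TPM, with Pou5f1 at 1294.7 to 2073.9 and Nanog at 245.5 to 559.8. By the test given below, Nanog fell at 12 h in the GABPA line (log2 change -0.34). Tfcp2l1 (0.36), Sox2 (0.20) and Dppa5a (0.16) rose there, and the other listed genes, Pou5f1 among them, were not called. The 8 genes listed for feeder fibroblasts summed to 2.95 to 8.09 TPM. Thy1 was the highest of them at 1.74 to 5.6 TPM, then Pdgfrb at 0.46 to 1.52 and Col1a1 at 0.24 to 1.27. Lum was at 0 in every library and Col3a1 at no more than 0.02. Col1a1 rose at 12 h in the GABPA line (log2 change 0.75). Genes listed for differentiated lineages, 8 in number, summed to 25.3 and 25.7 TPM in GABPA-line DMSO libraries and to 15.4 and 15.6 after dTAG-13, and the part of this difference in the chaperone values was not tested. The degron acts on protein, so mRNA cannot show the depletion: Gabpa itself read 46.4 to 48.9 CPM (counts scaled to the library total) in DMSO and 64.6 to 70 CPM after dTAG-13 in the GABPA line. Hspa1a and Hspa1b share most of their sequence, and their counts are estimates that divide shared reads. The handling of strands was not stated in the labels or file headers used. Hspa1a overlaps Gm20481 on the other strand over 2225 bases, and Hspd1 and Hspe1 overlap over 112 bases. Hspa8 overlaps 3 genes on its own strand over 262 bases, and the part of these in its values was not tested.

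Per length, the constitutive Hsp70 gene Hspa8 was far more abundant than the inducible Hspa1a and Hspa1b. In GABPA-line DMSO cells Hsp90ab1 (ENSMUSG00000023944.15, chr17:45878701-45884197, mm39, as are all gene positions that follow) had 4459.0 ± 6.79 TPM (SD, n = 2). Hspa8 (ENSMUSG00000015656.18, chr9:40712280-40721383) followed with 3412.2 ± 87.3 TPM, and Hsp90aa1 (ENSMUSG00000021270.14, chr12:110657039-110669162) with 1540.7 ± 97.9 TPM. Next in level came Hspb1 (ENSMUSG00000004951.11, chr5:135916773-135918417) with 1300.5 ± 8.06 TPM and Hspe1 (ENSMUSG00000073676.5, chr1:55127291-55130466) with 1199.2 ± 12.3 TPM. Hspd1 (ENSMUSG00000025980.15, chr1:55116994-55127402) had 676.5 ± 24.6 TPM, about the middle of the order. Hsph1 (ENSMUSG00000029657.16, chr5:149537752-149559841) had 109.8 ± 2.62 TPM, and Dnajb1 (ENSMUSG00000005483.11, chr8:84334822-84339282) 52.8 ± 0.707 TPM. At the bottom stood the inducible Hsp70 genes, Hspa1b (ENSMUSG00000090877.4, chr17:35175412-35178214) with 7.96 ± 0.544 TPM and Hspa1a (ENSMUSG00000091971.4, chr17:35188166-35191132) with 2.02 ± 0.332 TPM. This order was the same in all 6 RNA-seq groups, and neighbours in it overlapped between libraries in 1 case only, Hsp90aa1 and Hspb1 after dTAG-13 in the GABPA line.

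**Figure D1:**
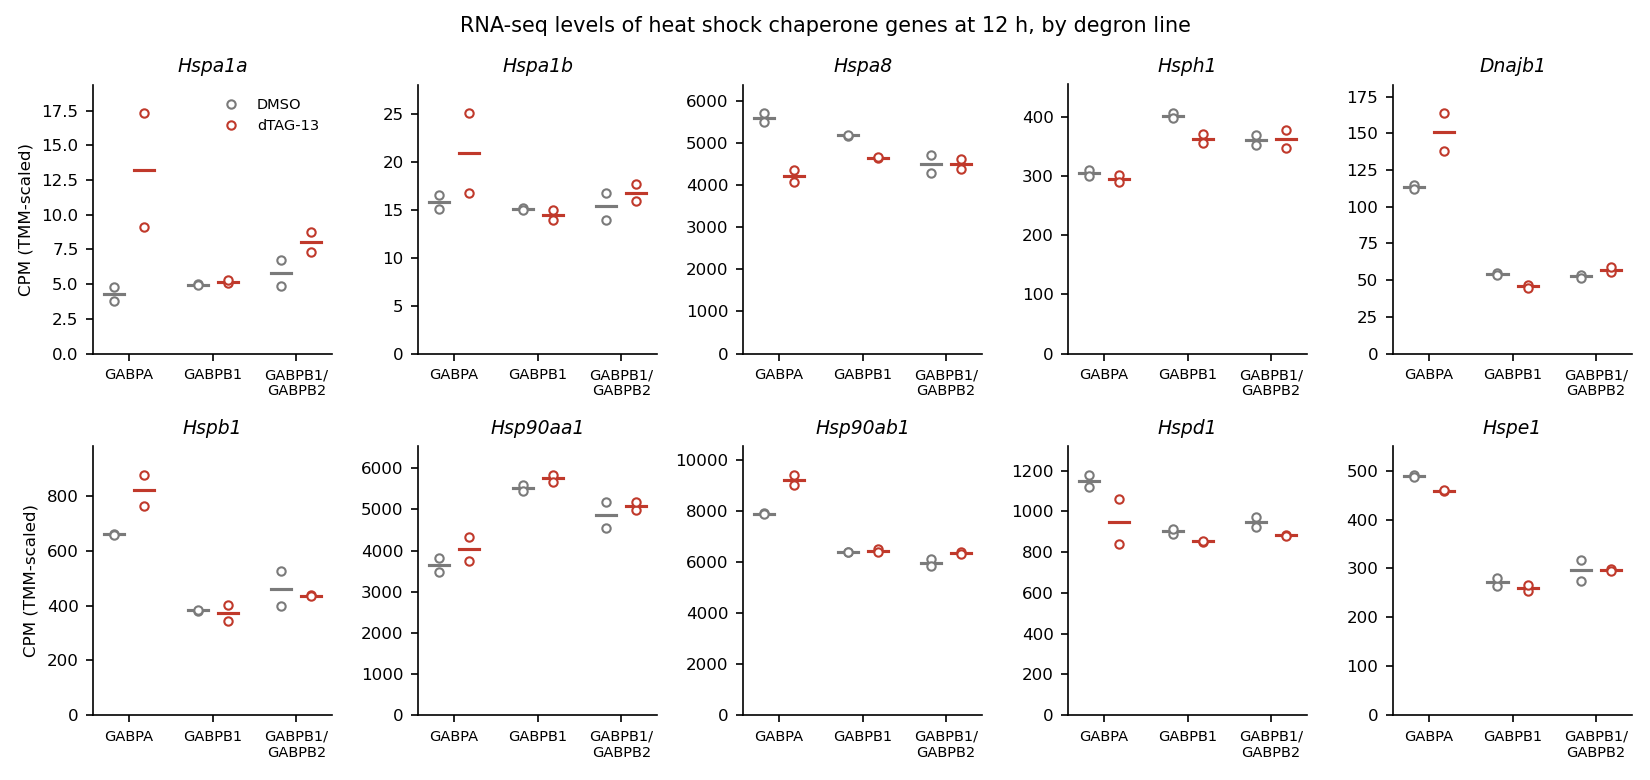
Level of each of the 10 genes in RNA-seq, in CPM on a linear axis with its own range per gene, by line and treatment at 12 h. Points are libraries (2 per group) and bars are group means; Hspa1a in dTAG-13 cells of the GABPA line reads 17.3 and 9.08 CPM against 4.76 and 3.76 in DMSO.

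After 12 h of dTAG-13 in the GABPA line the inducible Hsp70 genes Hspa1a and Hspa1b, Dnajb1, Hspb1 and the constitutive Hsp90ab1 rose, and the constitutive Hspa8 and the chaperonin gene Hspd1 fell. Hsph1, Hsp90aa1 and Hspe1 were not called. That is 5 of 10 members that rose and 2 that fell, in a comparison in which 24.6% of all 16396 genes tested rose and 21.9% fell. The members were chosen with earlier results of these data known, so no excess over these shares can be read from their calls. The calls of Hspa1b, Hspb1 and Hspd1 depended on single libraries, as given below. The median log2 change of the 10 members was 0.18, beside 0.06 for all genes. Calls rest on quasi-likelihood tests in edgeR, Benjamini-Hochberg adjusted across all genes (adjusted p under 0.05), and log2 values are changes, dTAG-13 minus DMSO, with standard errors.

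Among the Hsp70 genes, Hspa1a read 4.76 and 3.76 CPM in DMSO and 17.3 and 9.08 CPM after dTAG-13. Both treated libraries lay above both controls, yet they differed from each other by more than the lower one differed from DMSO. Hspa1a rose by a log2 change of 1.64 ± 0.251, or 3.11-fold (adjusted p = 4.31e-05). Hspa1b, its near copy, read 16.6 and 15.1 CPM in DMSO and 25.1 and 16.8 CPM after dTAG-13, so that 1 treated library was close to the controls. Its log2 change was 0.40 ± 0.15 (adjusted p = 0.0377). With the reads of Hspa1a and Hspa1b summed, which removes the division between them, the log2 change was 0.76 (adjusted p = 0.00111). Hspa8, the constitutive form, went the other way, from 5715.1 and 5500.5 CPM to 4373.4 and 4087.5 CPM without overlap. Hspa8 fell by 0.41 ± 0.0517 on the log2 scale (adjusted p = 5.43e-06).

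The partners of Hsp70 differed from one another. Dnajb1, which stimulates the Hsp70 ATPase, read 114.5 and 112.3 CPM in DMSO and 163.6 and 137.6 CPM after dTAG-13, and rose by 0.41 ± 0.0764 (adjusted p = 0.000289). Hsph1, the exchange factor, read 310.3 and 299.5 CPM in DMSO against 301.8 and 290.3 CPM, with overlapping groups, and was not called (log2 change -0.04 ± 0.0587, adjusted p = 0.59). The small heat shock gene Hspb1 read 664.0 and 660.2 CPM in DMSO and 878.9 and 766.3 CPM after dTAG-13. Its log2 change of 0.31 ± 0.1 passed the test (adjusted p = 0.0167), and again the first treated library was the higher.

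Of the Hsp90 pair, the constitutive Hsp90ab1 rose, from 7923.9 and 7901.6 CPM to 9042.6 and 9433.5 CPM (log2 change 0.22 ± 0.0406, adjusted p = 0.000227). Here the duplicates lay close together and apart from DMSO. Hsp90aa1, the inducible form, read 3815.3 and 3484.0 CPM in DMSO and 3738.9 and 4339.2 CPM after dTAG-13, with overlap, and was not called (0.15 ± 0.0688, adjusted p = 0.0943). Hsp90aa1 did pass the test in edgeR without a count filter (0.13, adjusted p = 0.039) and at a mean log2 CPM of at least 3 (0.20, adjusted p = 0.0211). For the chaperonin, Hspd1 fell from 1179.0 and 1119.3 CPM to 838.2 and 1060.4 CPM (log2 change -0.28 ± 0.0779, adjusted p = 0.00786). Its treated libraries were far apart, and neither reached the controls. Hspe1, transcribed from the same promoter stretch in the opposite direction, read 491.8 and 486.8 CPM against 457.9 and 461.3 CPM and was not called (-0.09 ± 0.0651, adjusted p = 0.278).

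The first dTAG-13 library of the GABPA line was the higher of the treated pair for Hspa1a, Hspa1b, Dnajb1 and Hspb1 and the lower for Hspd1 and Hsp90aa1. Without it Hspa1a (1.10, adjusted p = 0.000813), Dnajb1 (0.28, adjusted p = 0.0078) and Hspa8 (-0.46) were still called, and Hsp90aa1 was also called (0.25, adjusted p = 0.0084). The calls of Hspa1b (0.08, adjusted p = 0.686), Hspb1 (0.21, adjusted p = 0.173) and Hspd1 (-0.12, adjusted p = 0.138) were lost. Hspa1b and Hspb1 also lost their calls without either DMSO library, at adjusted p of 0.0694 and 0.208 for Hspa1b and 0.073 and 0.0816 for Hspb1. Hspd1 lost its call without the first DMSO library (-0.24, adjusted p = 0.0647). DESeq2 did not call Hspb1 (0.32, adjusted p = 0.0633), and a fit of the 4 libraries of this line alone did not call Hspa1b (0.36, adjusted p = 0.0807). The rises of Hspa1a, Dnajb1 and Hsp90ab1 and the fall of Hspa8 passed the test without any single library of the comparison.

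**Figure D2:**
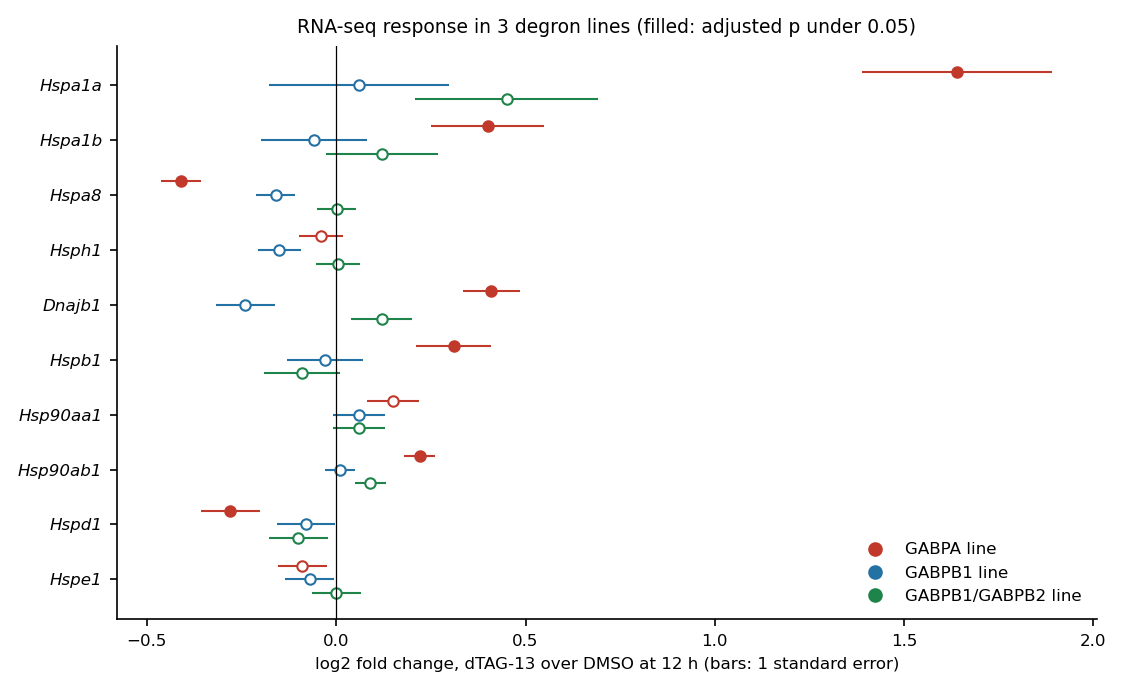
Log2 change, dTAG-13 minus DMSO at 12 h, of the 10 genes in the 3 lines. Bars are 1 standard error and filled symbols passed the test; in the GABPA line Hspa1a is the farthest to the right at 1.64 and Hspa8 the farthest to the left at -0.41, and no symbol is filled for the other lines.

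In the GABPB1 line no member was called at 12 h: 0 rose and 0 fell with edgeR, where 1.28% of all genes rose and 5.46% fell. DESeq2 also called 0, and 3 members had an unadjusted p under 0.05. Hspa1a read 5.03 and 4.9 CPM in DMSO and 5.09 and 5.26 CPM after dTAG-13, a log2 change of 0.06 ± 0.237 (adjusted p = 0.939). The groups did not overlap, but they differed by little against the standard error. Hspa8 read 5176.4 and 5211.0 CPM against 4647.6 and 4665.8 CPM, without overlap (-0.16 ± 0.0516, adjusted p = 0.0843). Dnajb1, which rose in the GABPA line, read 54.6 and 53.5 CPM against 46.8 and 44.9 CPM and was lower in both treated libraries (-0.24 ± 0.0788, adjusted p = 0.087). Hsp90ab1 read 6412.6 and 6394.3 CPM against 6501.3 and 6395.4 CPM, and Hspd1 887.1 and 915.4 CPM against 847.7 and 856.5 CPM. Hsph1 read 406.3 and 398.8 CPM in DMSO against 370.9 and 355.8 CPM (-0.15 ± 0.0576, adjusted p = 0.157), without overlap. Fitted on the 4 libraries of this line alone, Hspa8 (adjusted p = 6.83e-05), Dnajb1 (0.00268) and Hsph1 (0.00595) fell and Hsp90aa1 (0.07, adjusted p = 0.0345) rose. That fit changes the spread, the scaling and the genes tested together.

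In the GABPB1/GABPB2 line 0 members rose and 0 fell with edgeR, beside 3.53% and 9.26% of all genes. DESeq2 called 0 and 1 member had an unadjusted p under 0.05. Hspa1a read 6.75 and 4.87 CPM in DMSO and 8.74 and 7.3 CPM after dTAG-13 (log2 change 0.45 ± 0.241, adjusted p = 0.258), higher in both treated libraries. Hspa8 read 4290.6 and 4721.6 CPM against 4390.7 and 4631.4 CPM, the treated libraries falling between the controls. Dnajb1 read 53.5 and 51.5 CPM against 55.2 and 59.1 CPM (0.12 ± 0.0813). Hspd1 read 921.5 and 971.0 CPM against 885.9 and 880.9 CPM, lower in both treated libraries, and Hsp90ab1 read 6109.3 and 5840.8 CPM against 6400.7 and 6309.2 CPM. Hspb1 had its control libraries far apart, at 527.4 and 398.3 CPM, with 438.5 and 433.9 CPM after dTAG-13 between them. Without 1 DMSO library at a time, Hsp90ab1 (0.12, adjusted p = 0.047, without the first) or Hspb1 (-0.28, adjusted p = 0.0254, without the second) was called.

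The difference between the responses was tested directly. Against the GABPB1 line, the GABPA-line response was higher for 3 members and lower for 1, where 12.5% and 13.3% of all genes were. Dnajb1 differed by 0.65 ± 0.11 (adjusted p = 0.00027), Hspa1a by 1.58 ± 0.347 (adjusted p = 0.00254), Hsp90ab1 by 0.21 ± 0.0574 (adjusted p = 0.0107) and Hspa8 by -0.25 ± 0.0729 (adjusted p = 0.0178). The differences of Hspb1 (0.35, adjusted p = 0.085) and Hspa1b (0.46, adjusted p = 0.115) were not called. Hsp90ab1 lost its call without any 1 of the GABPB1 libraries (0.14 to 0.16, adjusted p of 0.118 to 0.187). Hspa8 lost it without the first GABPA DMSO library (-0.23, adjusted p = 0.0624) or the second GABPA dTAG-13 library (-0.20, adjusted p = 0.0575). Dnajb1 and Hspa1a were called without any single library.

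Against the GABPB1/GABPB2 line, 1 member was higher and 1 lower, beside 10.1% and 10.7% of all genes. Hspa1a differed by 1.18 ± 0.35 (adjusted p = 0.0229) and Hspa8 by -0.41 ± 0.073 (adjusted p = 0.000621). Dnajb1 (0.29, adjusted p = 0.0794) and Hspb1 (0.40, adjusted p = 0.0567) were not called. Both sets of differences use the same GABPA libraries and are not independent. The Hspa1a difference lost its call without the first GABPA dTAG-13 library (0.65, adjusted p = 0.134), the second GABPA DMSO library (1.01, adjusted p = 0.114), the first GABPB1/GABPB2 DMSO library (0.86, adjusted p = 0.122) or the second GABPB1/GABPB2 dTAG-13 library (1.02, adjusted p = 0.104). The Hspa8 difference was called without any single library.

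Without dTAG-13, the lines differed in members and in genes at large. In DMSO, GABPB1-line cells had 2 members higher and 5 lower than GABPA-line cells, where 29.7% of all genes were higher and 31.5% lower, so that members differed about as often as other genes. Dnajb1 was lower by a log2 difference of -1.07 ± 0.078 (adjusted p = 5.16e-09), at 54.6 and 53.5 CPM against 114.5 and 112.3 CPM. Hspe1 (-0.84 ± 0.0655, adjusted p = 1.1e-08) and Hspb1 (-0.79 ± 0.101, adjusted p = 3.57e-06) were lower too, with Hspe1 at 264.6 and 281.3 CPM against 491.8 and 486.8 CPM. Hspd1 (-0.35, adjusted p = 0.000926) and Hsp90ab1 (-0.31, adjusted p = 5.84e-06) were lower by less. The inducible Hsp90aa1 was higher (0.60 ± 0.069, adjusted p = 1.22e-06), as was Hsph1 (0.40 ± 0.0582, adjusted p = 1.51e-05). Hspa1a, Hspa1b and Hspa8 were not called. The Dnajb1 rise in the GABPA line thus started from a level above that of both other lines, while Hspa1a there started from a level no higher than theirs.

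GABPB1/GABPB2 cells in DMSO had 2 members higher and 6 lower than GABPA-line cells, beside 31.6% and 30.4% of all genes. The same members led: Dnajb1 was at -1.11 ± 0.0791 (adjusted p = 4.28e-09), Hspe1 at -0.72 (adjusted p = 7.1e-08) and Hsp90aa1 at 0.42 (adjusted p = 6.09e-05). Hspa8 was also lower here (-0.32, adjusted p = 5.48e-05). Both comparisons share the GABPA DMSO libraries. Line, clone and tagged protein cannot be told apart in them, since each tag comes as 1 line.

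Of the other chaperone genes, 104 in 9 lists written by function, 100 were tested in RNA-seq, and after 12 h in the GABPA line 25 rose and 27 fell, close to the 24.6% and 21.9% of all genes, with a median log2 change of 0.01. The 4 called falls of largest size were those of Ppid, Stub1, Hspbp1 and Ahsa1, whose products assist Hsp90 or Hsp70. Of 18 Hsp90 co-chaperone genes 2 rose and 8 fell (median -0.13). Ppid, a cyclophilin that docks on Hsp90, fell by 2.94 ± 0.0718 on the log2 scale (adjusted p = 1.61e-14), and Ahsa1, which stimulates the Hsp90 ATPase, fell by 1.36 ± 0.057 (adjusted p = 5.78e-12). Sugt1 (-0.80) and Ttc4 (-0.77) fell too. Hsp90ab1, whose product these proteins bind, rose in the same libraries.

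Among 15 other Hsp70 and exchange factor genes 5 rose and 4 fell (median 0.27). For this list and those that follow, the shares of all genes were 24.6% risen and 21.9% fallen. Stub1, the ubiquitin ligase that marks Hsp70 clients, fell by 1.47 ± 0.0828 (adjusted p = 2.2e-10), Hspbp1, an exchange factor, by 1.43 ± 0.0988 (adjusted p = 3.35e-09), and Bag1, another exchange factor, by 0.84. Hspa2, a further Hsp70, rose (0.96 ± 0.158, adjusted p = 8.36e-05). Of 14 J-domain genes, relatives of Dnajb1, 5 rose and 6 fell (median 0.02), with Dnajb5 (1.57 ± 0.113) and Dnajb2 (0.91) rising and Dnajb6 (-0.43) falling. Only 5 of 9 other genes listed as small heat shock genes had enough counts, of which 3 rose and 0 fell. Cryab, a relative of Hspb1, rose by 2.04 ± 0.194 (adjusted p = 1.74e-07). The others that rose were Hspb8 (0.68) and Hspb11 (0.63), and whether Hspb11 acts as a chaperone was not examined.

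Among 5 genes of the heat shock factors and their regulators, 1 rose and 1 fell, where 24.6% and 21.9% of all genes did. Hsf1, which encodes the factor that drives the heat shock response, fell by 0.21 ± 0.0734 (adjusted p = 0.0238). Hsbp1, which encodes an HSF1-binding protein, rose by 0.40 ± 0.0699 (adjusted p = 0.000175). The cytosolic chaperonin TRiC had 0 of 8 genes that rose and 3 that fell (median -0.12), Cct2 (-0.58 ± 0.053) most. Prefoldin, which passes clients to TRiC, had 0 of 6 that rose and 1 that fell, Pfdn6 (-0.41). Of 17 endoplasmic reticulum chaperone genes 7 rose and 3 fell (median 0.07), with Canx, a lectin chaperone, at 0.67 ± 0.0598 (adjusted p = 8.76e-08) and Dnajb9 at -0.85 ± 0.153. Of 12 other mitochondrial genes 2 rose, Clpb (0.44) and Trap1 (0.18), and 1 fell, Htra2 (-0.42).

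**Figure D3:**
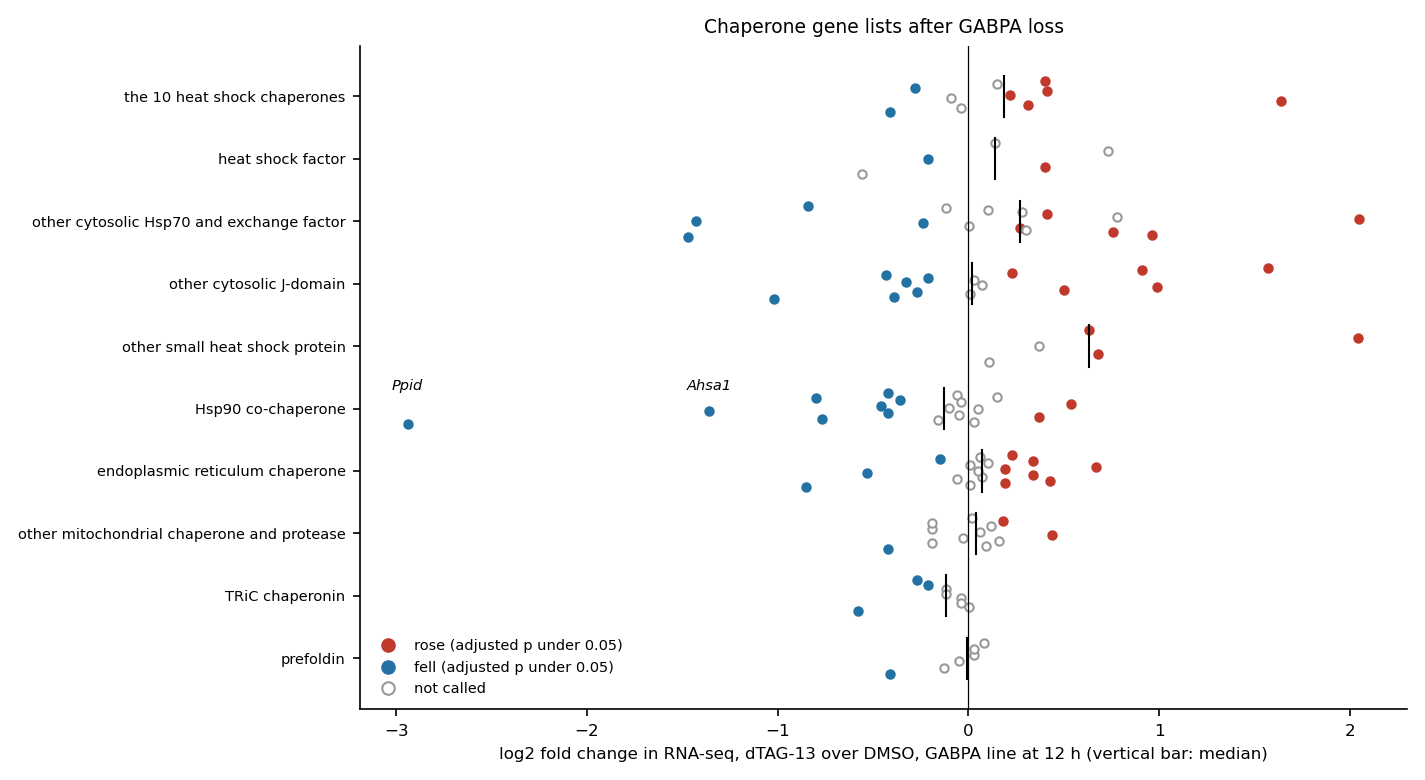
Log2 change at 12 h in the GABPA line (RNA-seq) of the 10 members and of every tested gene of the 9 other chaperone lists. Each point is a gene and vertical bars are list medians; the members' median is 0.18, Ppid lies at -2.94 and Ahsa1 at -1.36.

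In the GABPB1 line 1 of these 100 genes rose and 5 fell, beside 1.28% and 5.46% of all genes. In the GABPB1/GABPB2 line 4 rose and 11 fell, beside 3.53% and 9.26% of all genes. Ppid fell in both lines, by 0.62 (adjusted p = 7.21e-06) and by 1.77 (adjusted p = 2.29e-11). The Ppid response of the GABPA line was lower still, at differences of -2.32 and -1.17 on the log2 scale against these lines, and that of Ahsa1 at -1.19 and -1.06, all called. In DMSO, 15 of the 100 genes were higher and 48 lower in GABPB1 than in GABPA cells, beside 29.7% and 31.5% of all genes. GABPB1/GABPB2 cells had 20 higher and 55 lower than GABPA cells, beside 31.6% and 30.4% of all genes.

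SLAM-seq followed the newly made RNA of the GABPA line through the first hours. At 1 h Dnajb1 was the member that changed: 0 of 9 tested members rose and 1 fell, beside 0.0567% and 1.72% of 15887 genes. Its level in converted reads was 259.8 and 211.3 CPM in DMSO and 128.4 and 144.0 CPM after dTAG-13, without overlap, a fall of 0.79 ± 0.172 on the log2 scale (adjusted p = 0.0126). The call was lost without the first DMSO library (-0.62, adjusted p = 0.223), without the first (-0.69, adjusted p = 0.272) or second dTAG-13 library (-0.87, adjusted p = 0.068), and when all reads were counted (-0.25, adjusted p = 1). Hsph1 read 117.5 and 113.2 in DMSO and 97.4 and 77.8 after dTAG-13 and was not called (-0.39 ± 0.18, adjusted p = 0.426). Hspb1, higher in both treated libraries, read 222.1 and 153.3 in DMSO and 232.2 and 249.0 after dTAG-13 and was not called (0.36 ± 0.21, adjusted p = 0.57). Hsp90aa1 read 582.1 and 658.8 against 717.5 and 659.9 (0.15 ± 0.147), with 1 treated library at the level of the higher control. Hspa8, later the largest fall, read 1297.8 and 1232.0 against 1068.0 and 1337.6, its treated libraries lying on either side of DMSO.

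At 2 h and 4 h no member was called, with the same DMSO libraries serving both times. At 2 h edgeR called 0 members, beside 0.145% of genes that rose and 3.21% that fell, DESeq2 called 0, and 0 members had an unadjusted p under 0.05. At 4 h edgeR called 0 members, beside 0.113% and 3.91% of genes, DESeq2 called 0, and 1 had an unadjusted p under 0.05. That member was Dnajb1, with 279.7 and 267.2 CPM of converted reads in DMSO, 253.9 and 202.6 at 2 h (-0.26 ± 0.158, adjusted p = 0.566) and 190.5 and 208.5 at 4 h (-0.45 ± 0.161, adjusted p = 0.148). Its libraries were below DMSO at both times. Between 2 h and 4 h of dTAG-13 edgeR called 0 of 15887 genes (0% in either direction), 657 had an unadjusted p under 0.05 with 0 members among them, and DESeq2 called 0 genes.

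By 12 h the constitutive Hsp70 and the chaperonin gene had fallen in new RNA as well. Of 9 members 1 rose and 2 fell, beside 12.3% and 18.3% of genes. Hspa8 read 2631.9 and 2502.6 CPM in DMSO and 1107.4 and 1033.5 after dTAG-13, with no overlap, and fell by 1.26 ± 0.175 on the log2 scale (adjusted p = 5.57e-06). Hspd1 fell from 515.2 and 531.4 to 340.1 and 328.8 (-0.65 ± 0.139, adjusted p = 0.001). Hsp90aa1 rose from 775.8 and 835.0 to 1121.8 and 1118.0 (0.48 ± 0.143, adjusted p = 0.0141), a call that was lost without the first DMSO library (0.47, adjusted p = 0.0899). Dnajb1 read 285.6 and 286.9 against 252.5 and 221.1 and was not called (-0.27 ± 0.154, adjusted p = 0.192). Hsp90ab1 read 1838.1 and 2113.8 CPM against 1838.8 and 1576.1 CPM (-0.21 ± 0.146, adjusted p = 0.286), and its groups overlapped. The chaperonin partner Hspe1 read 293.4 and 281.5 CPM against 208.2 and 304.4 CPM, its treated libraries on either side of DMSO. Hspb1 read 334.1 and 299.5 CPM against 365.8 and 346.4 CPM, and Hsph1 146.5 and 151.6 CPM against 157.9 and 147.4 CPM, neither called. Over all SLAM-seq libraries, reads mapped to several positions made up 18.4% to 34.9% of those of Hspd1, 15.8% to 30.2% of those of Hspb1 and 3.39% to 12% of those of Hspa8. The part of such reads in the values of these genes, at 12 h or earlier, was not tested.

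**Figure D4:**
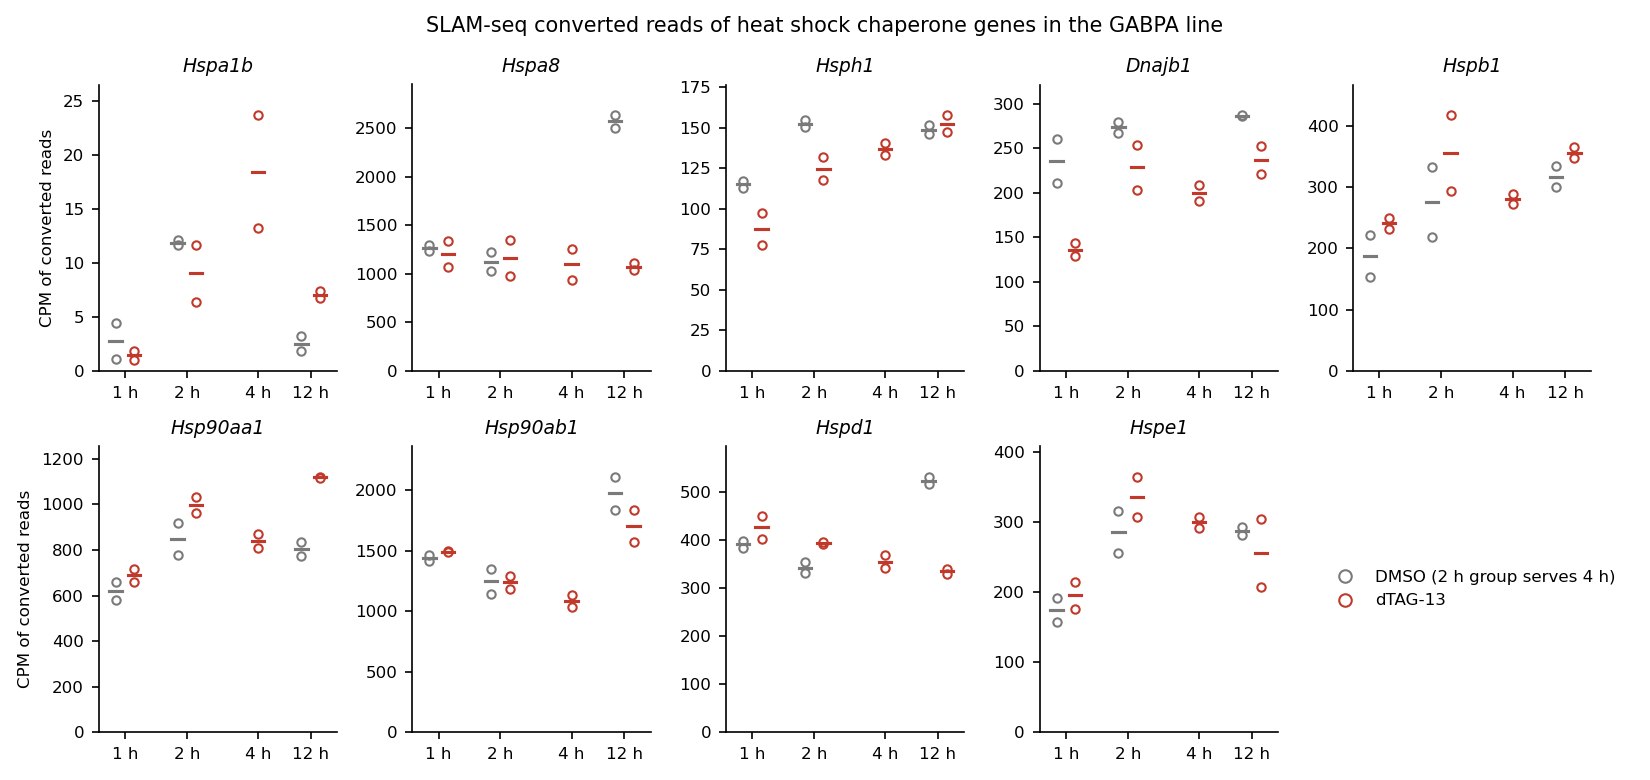
Converted reads (CPM) of the members in SLAM-seq of the GABPA line, by time (time points as categories, not to scale) and treatment. Points are libraries and bars are group means; Hspa8 in 12 h DMSO lies at 2631.9 and 2502.6, above every other group.

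The inducible Hsp70 genes were near the limit of this assay. Hspa1b had 7 and 4 converted reads in DMSO at 12 h and 28 and 13 after dTAG-13, higher in both treated libraries, but its log2 change of 1.45 ± 0.556 missed the threshold (adjusted p = 0.0508). It passed with DESeq2 size factors (adjusted p = 0.0458), with a higher count minimum (0.0359) and in a fit of the 12 h libraries alone (0.0478). It did not pass with DESeq2 (0.111), without a count filter (0.0815), with a replicate block (0.0539) or without any 1 of the 12 h libraries (0.0823 to 0.277). Counting all reads, Hspa1b also passed the test (1.02, adjusted p = 0.0372). Hspa1a had 6 and 5 converted reads in DMSO at 12 h and 20 and 10 after dTAG-13, and 1 to 9 in the other groups, and was not tested. With the converted reads of Hspa1a and Hspa1b summed, the 12 h log2 change was 1.26 and passed the test (adjusted p = 0.0243). This sum was not refitted with single libraries left out. At 1 h these genes had 1 to 5 converted reads per library, so a change at that time was not detectable at this depth.

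The 12 h response was tested against the 1 h response: 0 members were higher and 2 lower at 12 h, beside 2.14% and 4.7% of genes. Hspa8 differed by -1.19 ± 0.246 (adjusted p = 0.00449) and Hspd1 by -0.77 ± 0.2 (adjusted p = 0.0198). Hspd1 lost its call without either 1 h DMSO library, the second 1 h dTAG-13 library, either 12 h DMSO library or the second 12 h dTAG-13 library (adjusted p of 0.056 to 0.108). The DMSO groups themselves differed with time. Mean converted CPM of Hspa8 in DMSO was 1264.9 at 1 h, 1125.3 at 2 h and 2567.2 at 12 h, against 1070.5 after 12 h of dTAG-13. The 12 h DMSO mean was thus 2.03 times that at 1 h, and the 12 h dTAG-13 mean 0.846 times the 1 h DMSO mean. For Hspd1 the same ratios were 1.34 and 0.855. Over 15864 genes the median ratio of 12 h to 1 h DMSO was 0.986, and 12.6% of them had a ratio above that of Hspa8. The labelling time of each sample was not stated in the labels used, and its part in these ratios was not tested.

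The share of a gene's reads that carry conversions describes how much of its RNA is recent. For Dnajb1 this share was 14.5% (95% Wilson interval 12.9% to 16.2%) and 13.8% (12.2% to 15.5%) in the 1 h DMSO libraries and 8.65% (7.38% to 10.1%) and 9.04% (7.7% to 10.6%) after 1 h of dTAG-13. The intervals of treated and control libraries do not overlap, though they cover counting error only. Over genes with at least 100 reads the median share was 5.93% and 6.49% in 1 h DMSO and 5.76% and 5.39% after dTAG-13. Among these genes, Dnajb1 was at percentiles 85.4 and 80.9 in 1 h DMSO and 66.7 and 71.2 after dTAG-13. Hspa8 reached 33.2% and 33.3% in 12 h DMSO and 33.8% and 32.6% after dTAG-13, so its share overlapped between the groups while its converted CPM fell. Hsp90ab1, the most abundant member, had shares of only 2.37% to 7.81% over all libraries, and Hsp90aa1 had 11.8% and 11.9% in 12 h DMSO and 14.2% and 13.8% after dTAG-13, without overlap.

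**Figure D5:**
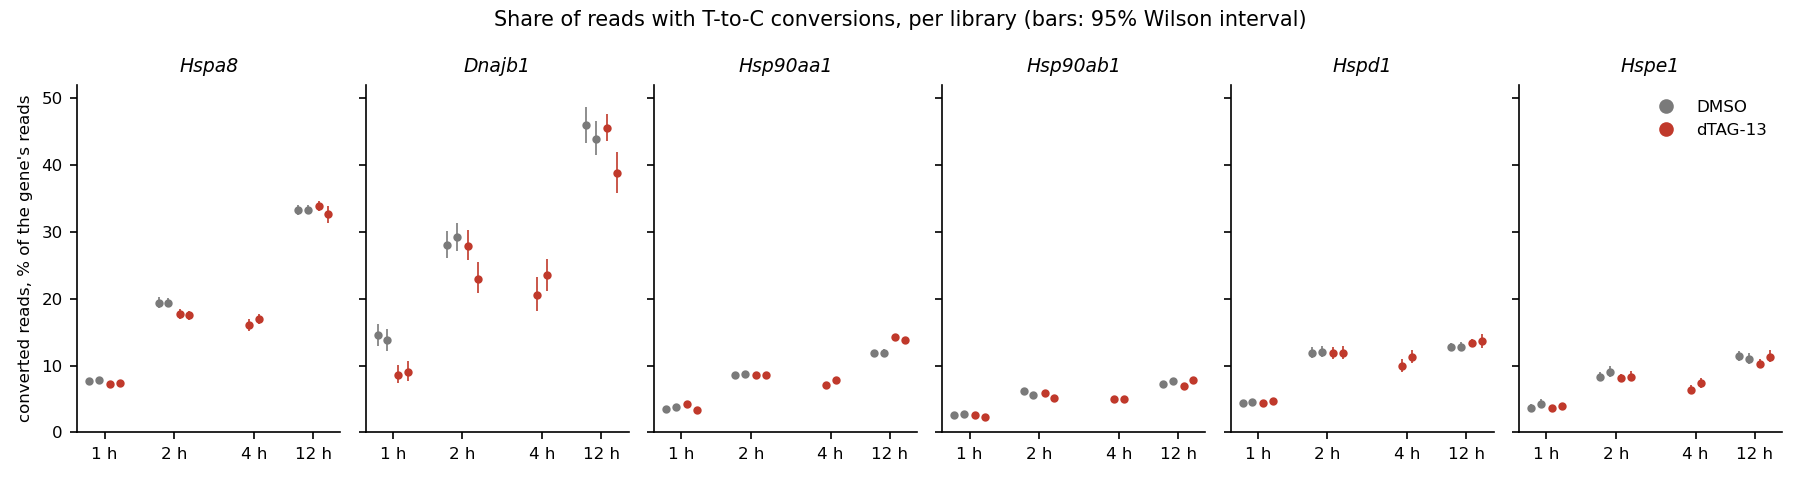
Percent of a gene's SLAM-seq reads that carry T-to-C conversions, by time (categories, not to scale) and treatment in the GABPA line. Points are libraries and bars are 95% Wilson intervals (counting error only); Dnajb1 at 1 h reads 14.5% and 13.8% in DMSO and 8.65% and 9.04% after dTAG-13.

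At 12 h in the GABPA line 3 tables give a change for each member: RNA-seq, converted SLAM-seq reads and all SLAM-seq reads. They were normalised separately, so values are set side by side and not tested against each other. Hspa8 was lower in each (-0.41, -1.26 and -1.61), as was Hspd1 (-0.28, -0.65 and -1.07), and both were called in each. Hspa1b was higher in each (0.40, 1.45 and 1.02), and the rise of Hspa1a in RNA-seq (1.64) stands beside 8 and 9 SLAM-seq reads of any kind in DMSO and 45 and 25 after dTAG-13 (adjusted p = 0.0608). Dnajb1 parted by assay, at 0.41 in RNA-seq, -0.27 in converted reads and -0.54 in all SLAM-seq reads (adjusted p = 0.0017). Hsp90ab1 did likewise, at 0.22, -0.21 and -0.52 (adjusted p = 0.0191). Hsph1 was near 0 in RNA-seq and converted reads (-0.04 and 0.04) and at -0.86 in all SLAM-seq reads. In all SLAM-seq reads 1 member rose and 6 fell, beside 29.8% and 27.6% of 26957 genes, whose median log2 change was 0.139. Relative to that median the rise of Hspa1b is smaller, and the falls are larger.

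Among the other chaperone lists SLAM-seq called 0 genes up and 3 down at 1 h, of 95 tested, where 0.0567% and 1.72% of all genes were called. These were Ppid (-1.13 ± 0.22, adjusted p = 0.00529), Cct2 (-0.63, adjusted p = 0.0304) and Chordc1, an Hsp90 partner (-0.74, adjusted p = 0.0411). At 2 h and at 4 h 0 rose and 4 fell, beside falls of 3.21% and 3.91% of all genes, with Ppid at -1.79 and -1.97 and Stub1 at -1.20 and -1.37. At 12 h 7 rose and 34 fell, where 12.3% and 18.3% of all genes did, with a median of -0.26. All 8 TRiC genes fell at 12 h (median -1.05, from -1.28 to -0.61), and 7 of 8 had a lower response at 12 h than at 1 h. Of 18 Hsp90 co-chaperone genes 9 fell and 0 rose, Ppid at -3.27 ± 0.206 (adjusted p = 2.42e-11). Cryab rose at 12 h (1.83 ± 0.392, adjusted p = 0.000942), as in RNA-seq.

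For the 9 members measured in both assays, the genes most like each over the 13 group means were found by Pearson's r on log2 CPM centred within each assay (8939 genes, a description with no test, in which all genes share the libraries). For Hspa8 they were Tcp1, a TRiC subunit (r = 0.961), Gmps (0.957) and Atp5a1 (0.955). Those of Hsp90ab1 included Gapdh (0.967) and Rpusd4 (0.952), and those of Hspe1 were Magoh (0.981), Chchd1 (0.977) and Tmem18 (0.975). Dnajb1 was nearest to Polr2l (0.955), Cox4i1 (0.953) and Dffb (0.950), and Hspb1 to Atp5g3 (0.969), Sertad1 (0.965) and Cox6a1 (0.959). Hspd1 was nearest to Nmd3 (0.926), Pold3 (0.925) and Slbp (0.916), Hsp90aa1 to Tecpr2 (0.950), Ndel1 (0.948) and Dvl2 (0.927), Hsph1 to Mitd1 (0.927), Pgs1 (0.912) and Cep164 (0.882), and Hspa1b to Peg10 (0.943), Sav1 (0.929) and F2r (0.929). Between members, r was 0.888 for Hspb1 and Hspe1, 0.823 for Hspa8 and Hspd1 and 0.753 for Dnajb1 and Hspb1. The chaperonin partners Hspd1 and Hspe1 had r of 0.270, and the Hsp90 pair had r of -0.293.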

How the data were processed

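The 12 RNA-seq and 14 SLAM-seq libraries of 13 groups were analysed, and 66 samples of other assays were not used here. The deposited RNA-seq tables hold expected counts and TPM per gene from RSEM (1.3.1, with STAR 2.7.11a), per the submitters' processing notes. The deposited SLAM-seq tables give, per gene interval, a count of all reads and 1 of converted reads, from slamdunk 0.4.3 on mm39, per the file headers and labels. How strands were handled was not stated in the labels or headers used.

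Expected counts were rounded. A single edgeR fit per assay (edgeR 4.0.16, R 4.3.3) had 1 mean per group, TMM scaling, filterByExpr (minimum count 10, total 15), quasi-likelihood tests and Benjamini-Hochberg adjustment over 16396 (RNA-seq) or 15887 (SLAM-seq) genes, with calls at an adjusted p under 0.05. The standard error is the absolute log2 change divided by the square root of F. CPM were computed with edgeR's scaled library sizes. The biological coefficient of variation common to all genes was 0.0608 (RNA-seq) and 0.143 (SLAM-seq), and the scripts were tested on simulated data. Duplicates differed by more than counting error (chi-square per degree of freedom 1.87 to 14.6). There were 13 comparisons. Alternatives were DESeq2 1.42.0, its size factors in edgeR, no count filter, a mean log2 CPM of at least 3, a fit of the compared libraries alone, a replicate block, leaving out each library, all SLAM-seq reads and summed Hspa1a and Hspa1b reads.

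Members and lists were chosen with earlier results of these data known. From each list, up to 4 called genes with the smallest p in the GABPA line at 12 h could be named, up to 2 in other comparisons, and 3 most alike genes per member, of which 1 is not reported here. Promoters came from a RefSeq table (GRCm38.p6), and no coordinate was converted between builds.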

Additional observations from a re-analysis of the deposited data

Results flagged for a closer look

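Responses to dTAG-13 that differed by a direct test in edgeR were singled out. Between the GABPA and GABPB1 lines at 12 h these were Hspa1a (1.58 on the log2 scale), Dnajb1 (0.65), Hsp90ab1 (0.21) and Hspa8 (-0.25). Between the GABPA and GABPB1/GABPB2 lines they were Hspa1a (1.18) and Hspa8 (-0.41). Between 12 h and 1 h of SLAM-seq in the GABPA line they were Hspa8 (-1.19) and Hspd1 (-0.77).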

How the results depend on the processing

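Over 13 comparisons, members kept their side of the threshold in 1433 of 1505 values recomputed under another setting. In 65 of these the sign turned with no call under either setting, as for Hspa1b at 1 h (-0.96, and 0.41 without the second DMSO library) and Hspb1 at 12 h of SLAM-seq (0.17, and -0.41 with all reads). In 34 the call was lost and in 35 one was gained. In 3 the direction turned with a call under 1 of the settings, each with all SLAM-seq reads: Hsph1 at 12 h (-0.86) and for 12 h minus 1 h (-0.75), and Hsp90aa1 at 12 h (-0.12). Leaving out 1 library at a time, the members called ranged from 3 to 5 risen and 1 to 2 fallen in the GABPA line, 0 to 1 in each direction in the GABPB1/GABPB2 line, 2 to 5 higher and 0 to 1 lower for GABPA minus GABPB1, 0 to 4 higher and 1 to 2 lower for GABPA minus GABPB1/GABPB2, 0 to 1 fallen at 1 h, 0 to 1 risen at 12 h of SLAM-seq and 1 to 2 lower for 12 h minus 1 h. In the GABPA line Hsp90aa1 also rose without a count filter and at a mean log2 CPM of at least 3. In the GABPB1 line 1 member fell without a count filter, and 1 rose and 3 fell in its own fit. For GABPA minus GABPB1, 0 were lower at a mean log2 CPM of at least 3. For GABPA minus GABPB1/GABPB2, 2 were higher without a filter, 3 at that minimum, 0 in the own fit and 0 with Hspa1a and Hspa1b summed. In SLAM-seq all reads gave 0 fallen at 1 h, 6 fallen at 12 h and 1 higher for 12 h minus 1 h. At 12 h 2 had risen with DESeq2 size factors, with the higher minimum, in the own fit or with summed reads. The cause was not tested. Shared replicate numbers were not taken as pairs, since the labels do not say that they are and correlations of same-numbered deviations were -0.114 to 0.116 in RNA-seq and -0.0852 to 0.294 in SLAM-seq. They were above 0.1 in SLAM-seq for the shared DMSO group with 2 h (0.294) and 4 h (0.128) of dTAG-13. In RNA-seq they were above 0.1 for GABPA-line dTAG-13 with GABPB1/GABPB2-line DMSO (0.116), groups of different lines. A replicate block left every count of members called as it was, with 5 risen and 2 fallen in the GABPA line. With 2 libraries per group and few converted reads, small changes of Hspa1a and Hspa1b are beyond the depth of SLAM-seq.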
